A study of Homo sapiens with 8 samples.

Results

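Chromosome 14 of HepG2 cells was described over the stretch from 20 to 50 Mb of GRCh38, in which 746 of the 2166 accessible chromatin peaks of the chromosome and of the 60628 peaks of the library had their summit. The other 1420 peaks of the chromosome are called the rest of chromosome 14 below, and the stretch is called the segment. A peak belonged to the segment by the position of its summit, but the segment itself was selected on measured values of the same library, its fold enrichment and its peak density. Every fold, fragment, background and density value below is therefore a description with no test. HepG2 is an established human liver tumour cell line of hepatocyte character, labelled as hepatocellular carcinoma in the sample records and called a hepatoblastoma line in the paper. The experiment held 8 libraries of HepG2 cells of wild-type genotype, 1 for each combination of 0.1, 0.5, 1 or 5% formaldehyde (FA) with cryopreservation or flash freezing. The library analysed here was fixed with 0.1% FA and cryopreserved, and the other 7 libraries were not analysed here. With 1 library and no replicate, no value carries an error between samples, and the 95% exact binomial intervals given for shares cover counting error only.

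ATAC-seq uses the Tn5 transposase, which inserts sequencing adapters where DNA is not wrapped in nucleosomes, so that fragments pile up at active promoters, enhancers and insulator sites. The segment holds the olfactory receptor and RNase A gene clusters and the T cell receptor alpha and delta locus near the centromere, a gene-rich block with proteasome, RNA-processing and metabolic genes, and long gene-poor stretches with single neuronal genes such as NOVA1 and MDGA2. It also holds FOXA1, a pioneer transcription factor of liver and other endoderm, and NFKBIA, the inhibitor that keeps NF-kB in the cytoplasm.

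The sequences of 5 summits are shown because they carry a high fold, the most fragments, a named motif or the start site of FOXA1. Each is the summit base with 50 bp to either side, read from hg38 (GRCh38) on the plus strand, with motif matches in capitals. The matches are CCAATC (NFY) in reverse complement at HOMEZ, CACGTG (E-box) near GZMB and TGANTCA (AP-1) at LINC00609. The other 2 windows matched none of the 14 motifs searched.
MBIP start site, chr14:36320648-36320748: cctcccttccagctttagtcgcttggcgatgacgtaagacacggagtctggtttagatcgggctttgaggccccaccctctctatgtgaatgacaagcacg
HOMEZ start site, chr14:23286178-23286278: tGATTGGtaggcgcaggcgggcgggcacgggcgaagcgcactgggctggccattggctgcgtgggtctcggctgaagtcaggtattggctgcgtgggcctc
Intergenic, nearest to GZMB, chr14:24679076-24679176: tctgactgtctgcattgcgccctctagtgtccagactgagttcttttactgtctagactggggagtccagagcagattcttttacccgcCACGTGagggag
LINC00609 intron, chr14:36091191-36091291: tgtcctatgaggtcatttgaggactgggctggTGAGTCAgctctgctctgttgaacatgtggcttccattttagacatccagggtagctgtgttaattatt
FOXA1 start site, chr14:37595255-37595355: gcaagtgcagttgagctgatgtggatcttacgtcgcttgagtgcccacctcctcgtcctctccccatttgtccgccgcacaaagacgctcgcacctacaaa

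Most of the peaks of chromosome 14 with the highest fragment pileup lay in the segment. Solving the fold enrichment and p-value of the peak caller for each peak gave the fragments piled up at its summit and the fragments its surroundings would give there, called its background. At least 100 summit fragments were found at 80 of 746 peaks of the segment (10.7%, interval 8.60 to 13.2%), against 8 of 1420 peaks in the rest of chromosome 14 (0.563%, interval 0.244 to 1.11%). Over all nuclear peaks the share was 1.26%, and on chromosome 20 it was 3.99%. Of the 80, 64 overlapped the 1000 bp to either side of an annotated transcription start site (TSS) and 16 did not. Among nuclear peaks ranked by summit fragments, 35 of the top 100 lay in the segment and 0 in the rest of chromosome 14. Chromosome 20 held 20 of them and chromosome 2 held 14. The segment's 35 began at 144 fragments, and 32 of them were at a TSS.

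The median peak of the segment stood less far apart than its strongest peaks. The median number of summit fragments was 22 in the segment and 16.5 in the rest of chromosome 14, and 17 on the other nuclear chromosomes. At a TSS the medians were 52 in the segment, 34 in the rest of chromosome 14 and 33 on the other chromosomes, and away from a TSS they were 17, 14 and 14. Single chromosomes came closer to the segment than the others pooled. On chromosome 20 the median was 21 over all peaks, 46 at a TSS and 17 away from a TSS. The TSS median was 41 on chromosome 2 and 41 on chromosome 6. The local background differed more than the fragments did. Its median at TSS peaks was 2.58 fragments in the segment, against 1.27 in the rest of chromosome 14, a ratio of 2.03. This median was 2.14 on chromosome 20 and 1.35 over all nuclear peaks. The highest background was 14.4 in the segment and 8.08 in the rest. A background of at least 5 fragments was found at 72 of the segment's 746 peaks and 8 of the 1420 in the rest. One of at least 10 was found at 14 and 0 peaks. The shares over all nuclear peaks were not counted, so these counts do not show a high background to be particular to the segment. Elsewhere the background reached higher values than in the segment, up to 17.5 on the other nuclear chromosomes and 16.5 on chromosome 20 among them.

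Fold enrichment, the fragments divided by this background with 1 added to each, differed little at the median. The median fold was 11.2 in the segment (quartiles 7.66 and 17.7), 10.7 in the rest of chromosome 14 and 10.7 on the other chromosomes. At a TSS it was 15.4 in the segment and 15.0 in the rest of the chromosome, and away from a TSS 10.2 and 9.52. The difference lay in the upper tail. A fold of at least 20 was reached by 147 peaks of the segment (19.7%, interval 16.9 to 22.7%), against 181 of the rest (12.7%, interval 11.1 to 14.6%), beside 13.0% of all nuclear peaks. A fold of at least 30 was reached by 26 peaks of the segment (3.49%) and 7 of the rest (0.493%), beside 1.07% of all nuclear peaks. On chromosome 20 the share was 2.65%. The highest fold was 46.0 in the segment and 34.0 in the rest. Of the 100 nuclear peaks with the highest fold, 8 lay in the segment, 0 in the rest of chromosome 14, 9 on chromosome 20 and 17 on chromosome 2. More copies of the segment's DNA in HepG2, whose genome is aneuploid, and more accessibility per copy cannot be told apart in these values.

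**Figure D1:**
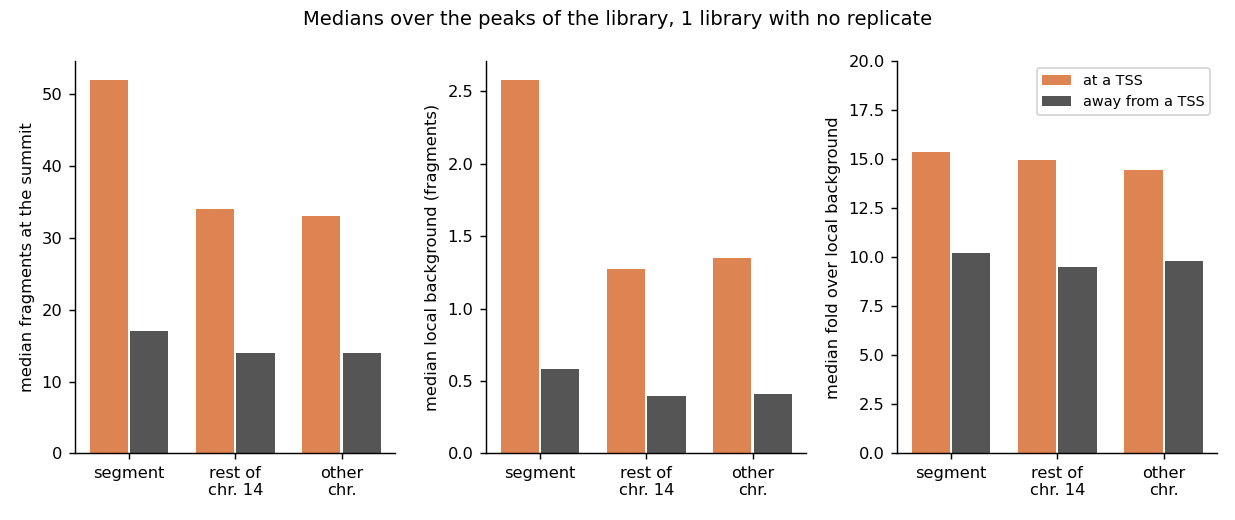
Median fragments at the summit, median local background in fragments and median fold over that background (bars, 1 library, no error bars), for peaks at a TSS and away from a TSS in the segment, the rest of chromosome 14 and the other nuclear chromosomes. The segment's TSS bar is at 52 fragments and 2.58 background fragments, while its fold of 15.4 is near the 15.0 of the rest of chromosome 14.

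Along the segment, peaks came in blocks that followed the genes. The 5 Mb from 20 to 25 Mb held 328 peaks (65.6 per Mb) and 142 protein-coding genes, and the 5 Mb from 25 to 30 Mb held 31 peaks (6.20 per Mb) and 4 genes. From 30 to 40 Mb there were 316 peaks (31.6 per Mb) and 47 genes, from 40 to 49 Mb 39 peaks (4.33 per Mb) and 11 genes, and the last Mb had 32 peaks and 10 genes. Over the whole segment the density was 24.9 peaks per Mb, against 23.4 per Mb of sequenced bases in the rest of chromosome 14, a ratio of 1.06. The counting interval of this ratio, 0.969 to 1.16, treats peaks as independent. Peaks were clustered, with 0 to 90 per 1 Mb bin of the segment, so it does not measure the ratio's spread along the chromosome. Counted per protein-coding gene, the segment had 3.49 peaks and the rest of the chromosome 3.53.

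The densest 1 Mb bin of the chromosome was the one that starts at 24 Mb, with 90 peaks, followed by the bin at 23 Mb with 82. No bin in the rest of chromosome 14 passed 60 peaks. The segment also held many sparse bins. Of its 30 bins, 17 had under 20 peaks, 9 had under 5 and 1, at 46 Mb, had none, and its median bin had 12 peaks, against 24 in the rest of the chromosome. The longest stretch without a summit ran for 1.65 Mb from 45793276 to 47442416, and the next for 1.19 Mb from 40417972 to 41609959. In the first of them lies RPL10L, a ribosomal protein gene known from the testis, whose TSS was 791 kb from the nearest summit.

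Fold moved much less than density from bin to bin. Over the 21 bins of the segment with at least 5 peaks, the median fold ranged from 7.91 at 43 Mb to 14.4 at 30 Mb, while the median of summit fragments ranged from 10 to 36. The 48 such bins of the rest of chromosome 14 had median folds from 6.94 to 15.7 and median fragments from 8 to 24. The bin at 24 Mb, with the most peaks, had the highest median of fragments (36) and a median fold of 12.4. A peak of fold 30 or more occurred in 11 of the segment's 30 bins and in 7 of 61 bins of the rest, and a peak of 100 or more fragments in 13 and 8 bins.

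Some sparse bins held a site of high fold, and others did not. In the gene-poor stretch from 25 to 30 Mb, the peak of highest fold was in the noncoding gene LINC02286 at 25 Mb (30.1), at the start of the neuronal splicing factor gene NOVA1 at 26 Mb (10.1) and in LINC02326 at 29 Mb (28.8). From 40 to 46 Mb it was in LRFN5, a neuronal adhesion gene, at 41 Mb (15.6), at the start of KLHL28 at 44 Mb (25.3) and at that of the splicing factor gene PRPF39 at 45 Mb (26.6). In the sparse bins at 28, 40, 43 and 47 Mb the highest folds were 15.1, 11.1, 17.0 and 16.3. The bins at 27, 42 and 48 Mb each had a single peak, of fold 5.95 and 6 fragments. In the denser bins, from 30 to 40 Mb, the highest folds were those of the SCFD1 intron at 30 Mb (46.0), STRN3 at 31 Mb (32.2), ARHGAP5 at 32 Mb (20.6), EAPP at 34 Mb (39.5), PSMA6 at 35 Mb (29.8), MBIP at 36 Mb (39.3), MIPOL1 at 37 Mb (32.4) and GEMIN2 at 39 Mb (33.7). The bins at 33 and 38 Mb topped out at 20.5 and 20.8, in each case away from a protein-coding start site.

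**Figure D2:**
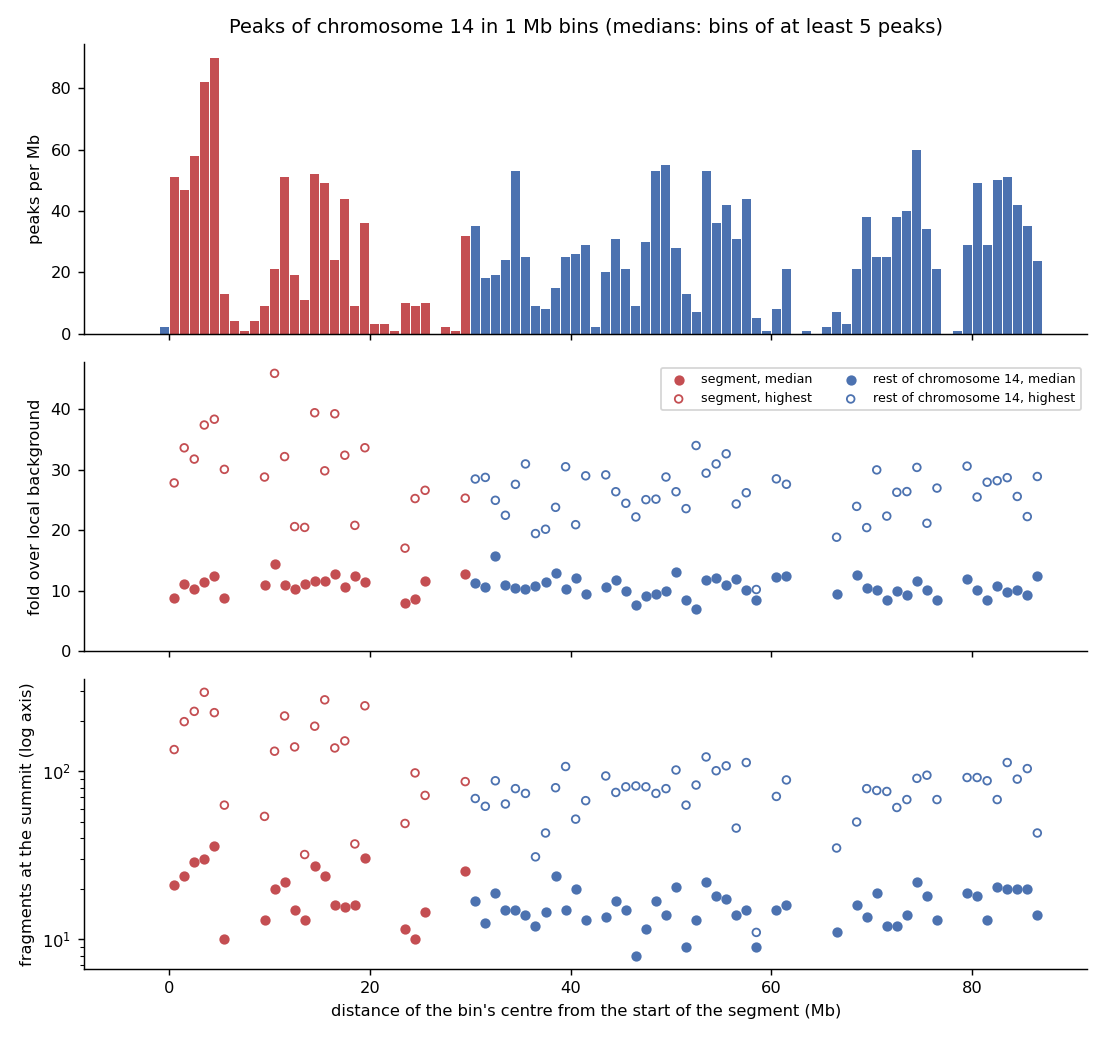
Chromosome 14 in 1 Mb bins, by distance in Mb from the start of the segment to the bin's centre. The top panel shows peaks per Mb, the middle panel the median (filled) and highest (open) fold, and the bottom panel the median and highest summit fragments on a log axis, for bins of at least 5 peaks. Median folds of the segment's bins lie between 7.91 and 14.4, and the highest open circles, up to 46.0 fold and 296 fragments, are in the first 20 Mb.

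The high values ended near 40 Mb. All 80 peaks of at least 100 fragments in the segment lay between 20343304 and 39432935, and the next one along the chromosome was at 59188581, beyond the segment. The 675 peaks from 20 to 40 Mb held all 26 of the segment's peaks of fold 30 or more, and the 71 peaks from 40 to 50 Mb held 0, with a highest fold of 26.6 and at most 98 fragments. The exact interval for 0 of 71 reaches 5.06%. The medians did not follow this division. Median TSS fragments were 45 from 20 to 25 Mb, 17 from 25 to 30 Mb, 84 from 30 to 40 Mb, 58 from 40 to 49 Mb and 32.5 in the last Mb, with 5 TSS peaks in the second block and 8 in the fourth. The median TSS fold was 14.8 from 20 to 40 Mb and 16.8 from 40 to 50 Mb. The division at 40 Mb was chosen after the values were seen.

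The limits of the segment fell between peaks of low or middling fold. The first peak inside had its summit at 20235804, near the olfactory receptor gene OR11H4, with a fold of 12.6 and 14 fragments, and the 50 bp at that summit occur 519 times in hg38. The last peak outside was at 19484169, near the pseudogene MED15P6, with a fold of 5.95 and 6 fragments. At the far end, the last peak inside was at 49993131 with a fold of 12.5 and 19 fragments, and the first outside was at 50001649 with a fold of 8.82 and 22 fragments, both in the noncoding gene LINC01588.

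**Figure D3:**
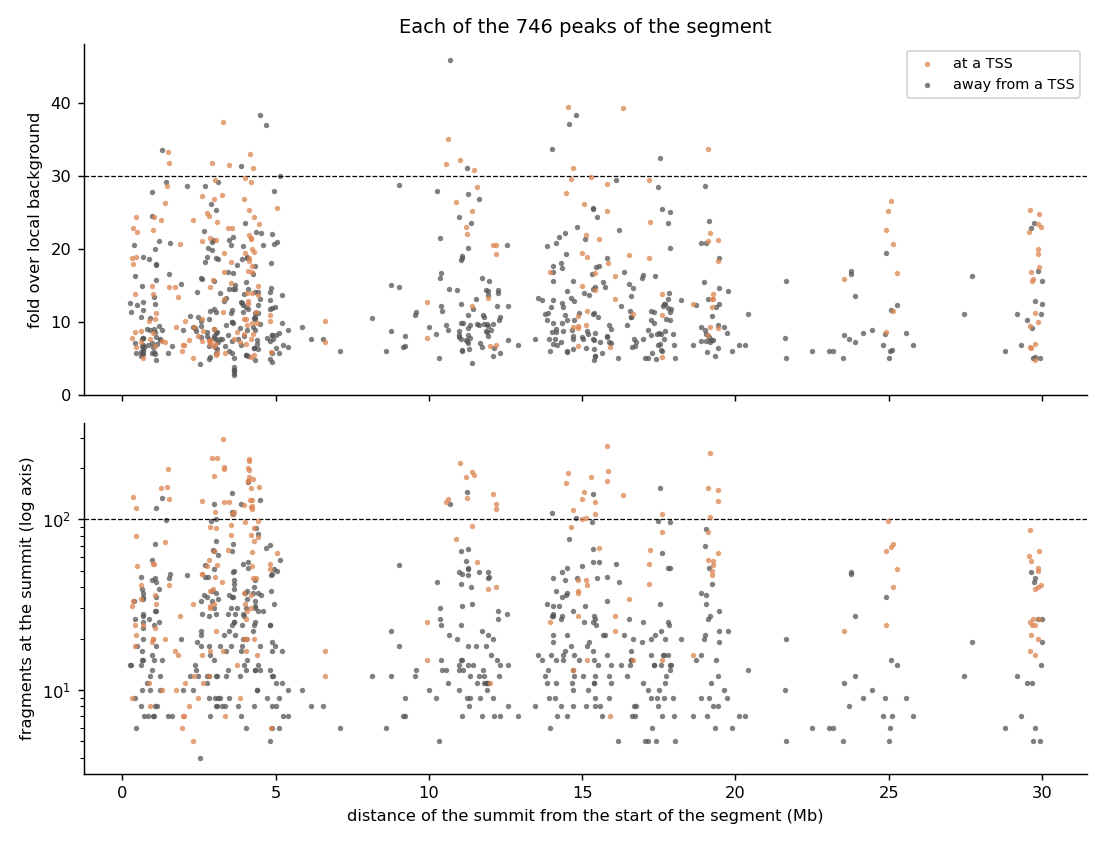
Each of the 746 peaks of the segment, by the distance of its summit from the start of the segment in Mb, with its fold above and its summit fragments on a log axis below, coloured by whether it is at a TSS. Dashed lines mark a fold of 30 and 100 fragments. The 26 peaks above the upper line and the 80 at or above the lower one are all within the first 20 Mb.

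The peak with the highest fold in the segment was not at a promoter. It lay in an intron of SCFD1, which encodes a regulator of SNARE assembly in transport between the endoplasmic reticulum and the Golgi. It had 123 fragments over a background of 1.70, a fold of 46.0. The promoter of SCFD1 was among the strongest too, with a fold of 35.1 and 132 fragments. Of the 20 peaks with the highest fold, from 31.5 to 46.0, 12 were at a TSS and 8 were not, and the summit sequence of each of the 20 occurred once in hg38.

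Among the TSS peaks of this ranking, EAPP, which encodes a phosphoprotein bound by E2F transcription factors, had a fold of 39.5 and 186 fragments. MBIP, a subunit of the ATAC histone acetyltransferase complex, had 39.3 and 138. HOMEZ, a homeobox gene, had a fold of 37.4 and the most fragments of the segment, 296, at chr14:23286035-23286438. GEMIN2 of the SMN complex (33.7), IRF9 of the interferon response (33.0), the arginine methyltransferase PRMT5 (31.8), the RNA m6A methyltransferase METTL3 (31.8), the ubiquitin ligase gene G2E3 (31.7) and NGDN (31.5) followed. At 2 places a single peak was counted at the start sites of a pair of genes on opposite strands. TOX4 and RAB2B shared a peak of fold 33.3, and STRN3 and AP4S1 one of fold 32.2. The summit of the latter lay 160 bp upstream of the STRN3 start and 890 bp downstream of the AP4S1 start, inside AP4S1. In the segment, 163 peaks were at the TSS of a protein-coding gene, 27 of them at more than 1 such gene, and 56 were only at the TSS of other genes.

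Away from start sites, the strongest peaks were spread over introns, untranslated exons and intergenic DNA. An intron of the long noncoding gene ENSG00000258744 had a fold of 38.4 and 130 fragments at chr14:24481646-24481942. An intron of BAZ1A, which encodes a subunit of the ACF chromatin remodeller, had a fold of 38.3 and 102 fragments. In contrast, the TSS peak of BAZ1A itself had a fold of 9.41 and 38 fragments. An untranslated exon of SNX6, a sorting nexin gene, had 37.2 and 77, and an intergenic site 44.9 kb from the TSS of the granzyme gene GZMB had 37.0 and 68. An intron of RPGRIP1, a gene of the photoreceptor cilium, had 33.6 and 133.

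One of the strongest peaks away from a TSS lay near FOXA1. At the FOXA1 TSS itself were peaks of fold 10.9 (84 fragments, summit 56 bp before the start) and 13.8 (107 fragments, 976 bp before it), over a background of 6.80 and 6.83 fragments. The TTC6 gene starts between their summits on the other strand, so the peaks belong to both start sites. At 48243 bp from the FOXA1 start, in the last part of MIPOL1, a peak of fold 32.4 with 152 fragments contained the FOXA motif. Another in an intron of MIPOL1 had a fold of 28.5 and 98 fragments, and 15 summits in all lay within MIPOL1. TTC6 spanned 20.

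EGLN3, which encodes a prolyl hydroxylase of the oxygen-sensing pathway, spanned more peaks than any other protein-coding gene of the segment, with 27 in an annotated span of 539 kb. Most of that span lies upstream of its canonical start site, whose own peak had a fold of 16.8 and 25 fragments. The strongest by fold was an intronic site 73297 bp upstream (fold 33.8, 109 fragments), and the strongest by fragments was at the far end of the annotated gene (fold 27.8, 162 fragments), where it is the TSS peak of SPTSSA, a gene of sphingolipid synthesis whose start site was 174 bp from the summit. STXBP6, which encodes a syntaxin-binding protein, came next with 22 peaks. At NFKBIA there were 2 peaks, of fold 16.7 (126 fragments) and 14.4 (107 fragments).

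The most fragments were found at promoters on a high background. After HOMEZ, the promoter of BRMS1L, a subunit of a histone deacetylase complex, had 267 fragments and a fold of 25.2. PNN, which encodes the splicing-associated protein pinin, had 246 fragments (fold 22.3), PRMT5 had 228 (31.8), and the start site shared by C14orf119 and ACIN1 228 (23.7). The STRN3 start-site peak, also counted for AP4S1, had 214, and PABPN1, which encodes a poly(A)-binding protein of the nucleus, had 202 (19.4). The shared promoter region of PSME2, a proteasome activator subunit, and RNF31 had peaks of 224 and 219 fragments with folds of 18.8 and 21.99. PCK2, the mitochondrial phosphoenolpyruvate carboxykinase, had 200 fragments over a background of 10.9, a fold of 16.9, and a further 166 fragments at a site 1364 bp inside the gene.

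The lowest folds of the segment came from a stretch of very high background. Around DHRS2, which encodes a short-chain dehydrogenase, the TSS peak had 111 fragments but a fold of 7.72 over a background of 13.5. Peaks inside and beyond the gene had folds of 2.80, 2.98, 3.39 and 3.44, with 42, 44, 50 and 25 fragments, and 2.80 was the lowest of the segment. About 50 kb away, upstream of JPH4, peaks had 143 and 111 fragments with folds of 9.96 and 7.35, and the second was the widest of the segment at 985 bp. The DHRS2 TSS peak and both JPH4 peaks passed 100 fragments while their folds lay below the segment's median of 11.2.

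Of the 214 protein-coding genes whose TSS lies in the segment, 144 had a TSS peak (67.3%, interval 60.6 to 73.5%), against 295 of 402 in the rest of chromosome 14 (73.4%, interval 68.8 to 77.6%) and 61.5% of all protein-coding genes. Of the segment's peaks 29.4% were at a TSS, against 28.0% of those in the rest and 28.3% of all nuclear peaks. Clustered gene families made up much of the remainder. Olfactory receptors, RNase A family genes and the granzyme cluster together had a TSS peak at 3 of 33 genes (9.09%) and accounted for 30 of the 70 genes that lacked one. The other 181 genes had one at 141 (77.9%).

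Among 16 olfactory receptor genes, OR6J1 alone had a TSS peak, with a fold of 8.79 and 11 fragments. Of 13 genes of the RNase A family of secreted ribonucleases, RNASE2 (fold 14.9, 19 fragments) and RNASE4 (5.00, 24 fragments) had one. The nearest summit to the canonical start of the angiogenin gene ANG was 1.12 kb away. The annotated span of ANG begins farther upstream and holds 5 peaks, the RNASE4 start-site peak among them. The granzyme and mast cell protease genes GZMB, GZMH, CTSG and CMA1 had none, at distances of 4.12 to 29.3 kb. Of the 127 T cell receptor alpha and delta gene segments between 21621838 and 22547506, a set added after the values were seen, 12 had a TSS peak (9.45%), with a median of 9.5 fragments.

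All 13 genes listed for chromatin and RNA processing had a TSS peak, beside 67.3% of all protein-coding genes of the segment. The lists were made with earlier results of these data known, so such shares depend on which genes were listed. The RNA-binding protein gene RBM23, not in the list, had no TSS peak, with its nearest summit 2.90 kb away. The median fold of the 13 listed genes was 26.4, with a range from 9.41 at BAZ1A to 33.7 at GEMIN2. TOX4, PRMT5 and METTL3 were the next highest, and the chromatin remodeller CHD8 had 28.6. All 18 genes listed for vesicle traffic did, with a median fold of 25.0, led by SCFD1, RAB2B, AP4S1 and STRN3. That list also holds genes with other roles, among them the nuclear import gene IPO4 (29.2) and NEMF of ribosome quality control (10.0). Proteasome genes had a peak at 4 of 5 (80%, interval 28.4 to 99.5%), an interval that contains 67.3%. They were PSMA6 (29.8), PSMB5 (29.5), PSME1 (25.3) and PSME2 (21.99), and the exception was PSMB11, the subunit of the thymus proteasome. Counted the same way, with the highest TSS peak of each gene, the median fold was 21.5 over the 144 protein-coding genes of the segment with a TSS peak, 19.1 over the 295 of the rest of chromosome 14 and 17.9 over all 12313.

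DNA repair and replication genes had a peak at 7 of 8 (87.5%, interval 47.3 to 99.7%). This interval contains the 67.3% of all protein-coding genes of the segment. APEX1, the main abasic site endonuclease, had a fold of 24.4, PARP2 22.9 with 135 fragments, and TINF2 of the telomere shelterin complex 19.9. The meiotic cohesin gene REC8 lacked one. Of the 3 ribosomal protein genes RPL36AL (25.3) and RPS29 (22.4) had one and RPL10L did not (66.7%, interval 9.43 to 99.2%). The 50 bp at the RPS29 summit occur 3 times in hg38.

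Metabolic genes had a peak at 11 of 15 (73.3%, interval 44.9 to 92.2%), an interval that contains the 67.3% of all protein-coding genes of the segment. They included the dehydrogenase genes DHRS4L2 (29.7) and DHRS4 (26.9), NUBPL of complex I assembly (28.5) and MGAT2 of N-glycan processing (25.3), which shares its peak with RPL36AL. DHRS4 and DHRS4L2 are near copies of each other, so reads could be shared between them. The amino acid transporter genes SLC7A7 and SLC7A8, the transglutaminase gene TGM1 and the adenylate cyclase gene ADCY4 lacked one at the canonical start. The annotated span of SLC7A7 begins upstream of that start, inside the peak counted for MRPL52 (fold 24.6, 58 fragments). For signalling genes it was 6 of 10 (60%, interval 26.2 to 87.8%), which also contains 67.3%. The metabolic and signalling intervals both contain the 61.5% of all protein-coding genes of the nuclear chromosomes as well. Highest among the signalling genes were IRF9 (33.0), the linear ubiquitin ligase gene RNF31 (21.99, the peak also counted for PSME2), EGLN3 (16.8) and NFKBIA (16.7). CEBPE, LTB4R, LTB4R2 and RIPK3 lacked one, though a peak of fold 29.2 with 62 fragments lay 1724 bp upstream of the canonical CEBPE start.

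Of 12 brain genes 6 had a TSS peak (50%, interval 21.1 to 78.9%), and of 7 muscle genes 3 did (42.9%, interval 9.90 to 81.6%). Both intervals contain the 67.3% of all protein-coding genes of the segment. The brain genes with one were STXBP6 at a fold of 25.6, INSM2 at 21.4, CBLN3 at 13.7, PRKD1 at 12.7, NOVA1 at 10.1 and SLC22A17 at 5.81 with 7 fragments. The CBLN3 peak is shared with the signalling gene KHNYN, whose start site is nearer to its summit. NPAS3, SSTR1, LRFN5, CPNE6 and MDGA2 were among those with none. In the list of lung and endoderm regulators 6 of 7 had one (85.7%, interval 42.1 to 99.6%), an interval that also contains 67.3%. They were MBIP, MIPOL1 (23.8), the lung and thyroid factor NKX2-1 and its neighbour SFTA3 (a shared peak, 19.2, 34 fragments), FOXA1 (13.8) and PAX9 (11.1, 15 fragments), and NKX2-8 lacked one. MBIP, as a subunit of a general histone acetyltransferase complex, and MIPOL1 are not known as such regulators, and FOXA1 acts in liver as well. Of the genes listed for muscle, CFL2 (31.2), COCH (26.5) and MYH7 (22.9, 66 fragments) had one, though COCH is known as an inner ear gene and CFL2 is also made outside muscle. The cardiac myosin gene MYH6 next to MYH7 lacked one, with its nearest summit 22.3 kb away, as did CMTM5, FITM1 and AKAP6.

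**Figure D4:**
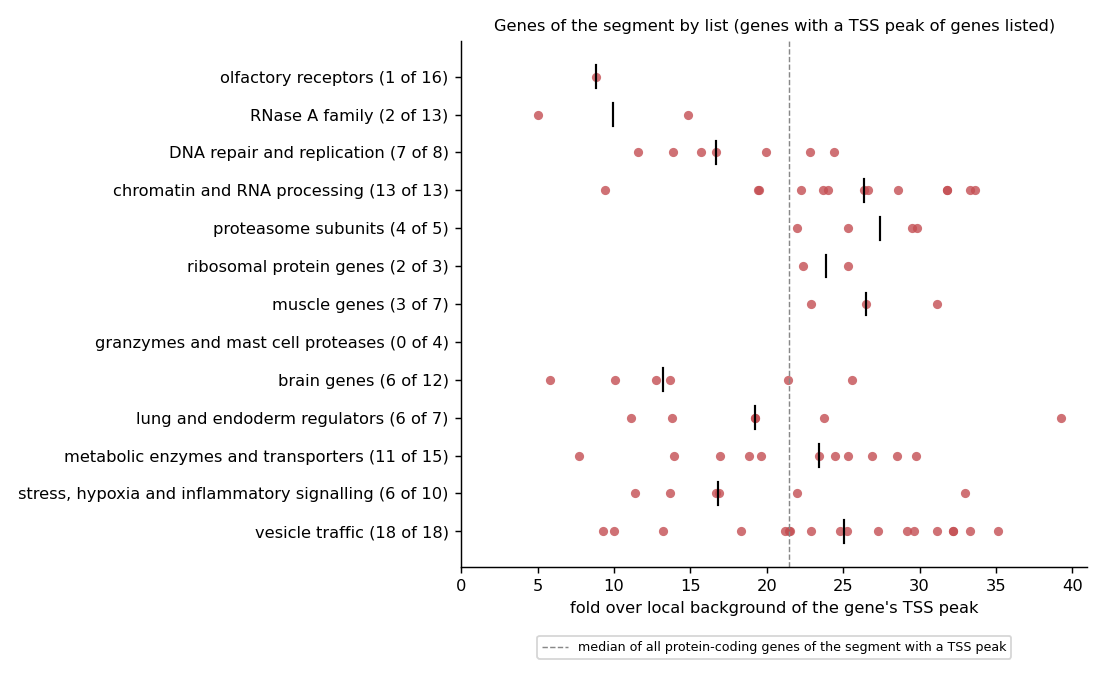
Fold over local background of the TSS peak of each listed gene of the segment (points), by gene list, with the list's median (black bar). Numbers in brackets give genes with a TSS peak of genes listed, and the dashed line is the median over the 144 protein-coding genes of the segment with a TSS peak, 21.5. The 13 chromatin and RNA genes and 18 vesicle traffic genes all have a point, the 16 olfactory receptors have 1 and the granzymes have none.

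For the library as a whole, 10 of 11 hepatocyte genes checked had a TSS peak, ALB being the exception, and 0 of 6 blood cell genes did. How deeply the library was sequenced is unknown from the values used, and the fragments at each summit stand in for depth. Nearly all values of the library came out as whole fragments, 99.7% within 0.01 of a whole number. The lowest background, 0.176 fragments, was shared by 56 segment peaks (7.51%) and 169 in the rest of chromosome 14 (11.9%). The sequence of 50 bp at the summit occurred more than once in hg38 at 19 segment peaks (2.55%) and at 10 of the rest (0.704%). None of those 19 had a fold of 30 or 100 fragments.

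The summits of the segment were less GC-rich than those of the rest of the chromosome. Over the 201 bp around the summit, the median GC content was 49.8% in the segment and 54.0% in the rest, at a TSS 62.7% and 68.2%, and away from a TSS 46.8% and 50.7%. The DNA 2000 bp away on either side of the summits differed in the same direction. Its median GC content was 42.3% in the segment and 45.5% in the rest. Away from a TSS these medians were 41.5% and 46.0%, while at a TSS they were close, at 44.03% and 44.28%. Peak widths were close, with medians of 168.5 and 173 bp. Of the segment's peaks 41.4% were intronic and 23.5% intergenic, against 45.8% and 21.2% in the rest.

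Motifs were searched on both strands in the summit base with 50 bp to either side, and in windows of the same length 2000 bp downstream. For factors that open chromatin or act in liver the letters were TGTTTAC for FOXA, CAAAGTCCA for the nuclear receptor HNF4A, and TTGCNNAA for the CEBP family, with the HNF1 consensus besides. Factors found mostly at promoters were searched as CCGGAAGT for GABPA, CGCATGCG for NRF1, as CCAATC for NFY, GGGGCGGGG for the SP family and AAGATGGCG for YY1. The remaining strings were TGANTCA for AP-1, the E-box CACGTG, then GGAATG for the TEAD factors of Hippo signalling and AGATAA for GATA, with the CTCF consensus besides. None of these strings contains another. At least 1 motif was found at 314 of 746 summits (42.1%, interval 38.5 to 45.7%), against 41.7% in the rest of chromosome 14, and in 21.2% of the segment's downstream windows.

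The CTCF motif, bound by the main insulator protein of vertebrates, was found at 39 segment summits (5.23%) and 0 downstream windows (interval up to 0.493%), against 4.86% of summits in the rest of the chromosome and 4.45% on the other chromosomes. FOXA matched at 40 (5.36%), against 1.74% of the segment's downstream windows and 4.72% of summits in the rest. NFY matched at 19 of the 219 TSS summits (8.68%) and 3.61% of the others, and SP at 22 (10.0%) and 0.759%. GATA letters were no more frequent at summits than beside them, with 5.90% of summits and 6.70% of downstream windows. DNA 2000 bp from the segment's summits was less GC-rich than the summits (medians 42.3% and 49.8%). The motif shares were not adjusted for this difference. For each of the 14 motifs the segment's interval and that of the rest of chromosome 14 overlapped. A match describes the letters in the window and not a bound site.

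**Figure D5:**
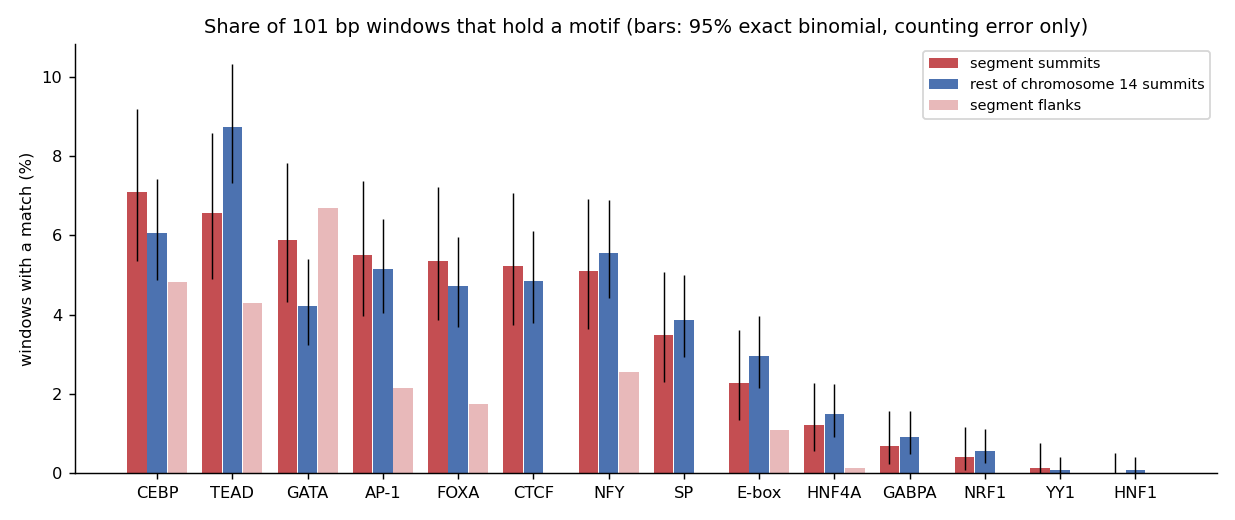
Share of windows of 50 bp to either side of the centre holding each of 14 motifs at segment summits, at summits in the rest of chromosome 14 and in windows 2000 bp downstream of segment summits, in percent, with 95% exact binomial intervals on both kinds of summit. CTCF stands at 5.23% of segment summits and 0 of their downstream windows, and GATA at 5.90% and 6.70%.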

How the data were processed

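Bulk ATAC-seq peaks of 1 HepG2 library (0.1% FA, cryopreserved) were analysed. Per the paper's methods, the authors used cutadapt for trimming, aligned to GRCh38, dropped duplicates and ran MACS2 with its standard parameters on this sample. The submitters' notes name bcl2fastq, cutadapt, MACS2 (with no version) and deepTools 3.5.5. The deposited list gives 5 values per peak: a whole-number score of 10 times the -log10 q, the ratio of the summit over its local background (fold), the -log10 p, the -log10 q and the summit position. Its peak names carry the word short beside BAM, so longer fragments may be missing from the pileup. A Tn5 shift of read ends, which would move summits by a few bases, and the use of fragments or extended reads are not stated.

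Summit fragments k and background b were solved from the deposited fold, taken as k plus 1 over b plus 1, and the -log10 p, taken as a Poisson tail. The solver, the TSS overlap and the motif search were tested on simulated data, where they recovered 100% of 3000 peaks, 3000 of 3000 overlaps and 1400 of 1400 planted motifs. Genes and start sites came from GENCODE 44 (canonical transcript, 1000 bp to either side), and sequence from hg38, whose chromosome 14 (107043718 bp) contains every peak. GC content covered the summit with 100 bp on each side. Peaks were named for the gene whose TSS they overlapped, otherwise the gene they lay in, otherwise the nearest TSS. Named were the 20 peaks of highest fold, the 10 with the most fragments, the 12 protein-coding genes of highest TSS fold, up to 4 members of each gene list by fold, list members lacking or having a peak where at most 5 did, FOXA1, NFKBIA, MYH6, MYH7 and PCK2, the highest peak of 1 Mb bins and the peaks at the limits. Peaks around DHRS2, JPH4, EGLN3, MIPOL1 and TTC6, the T cell receptor segments and single further list members (BAZ1A, CHD8, IPO4, NEMF, ANG, PAX9, SPTSSA and further brain genes) were added with their values in view. The segment, members, lists and motifs were chosen with earlier results of these data known. No test was made. Some members and sequences are not reported here. Alternatives were -log10 q minimums of 5 and 20, TSS windows of 500 and 2500 bp, other summit windows, peaks away from a TSS, and the rest of the chromosome from 50 Mb. Software was samtools 1.23.1 and Python 3.11.15 with numba 0.67.0, scipy 1.17.1, pandas 2.3.3, matplotlib 3.10.9 and numpy 2.4.6.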

Additional observations from a re-analysis of the deposited data

How the results depend on the processing

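Of 38 settings tried on the main results, 21 left the value within its counting interval (or a count within 1.5 times) and 17 moved it. A -log10 q of at least 20 gave 381 peaks, 12.7 per Mb, a median fold of 17.6, median summit fragments of 47, a TSS share of 42.0% and a median GC of 54.7%, since fewer and stronger peaks entered. Peaks away from a TSS alone had a median fold of 10.2, median fragments of 17, a median GC of 46.8% and a motif share of 45.9%. Summit windows of 50 bp to either side gave a median GC of 51.5%, and motif windows of 25 bp to either side a motif share of 22.5%. Of 28 settings on single motifs 18 moved the share, and with 25 bp CTCF was at 2.41%, FOXA at 2.82%, SP at 0.804% and GATA at 2.68% of summits. Windows of 500 and 2500 bp gave TSS shares of 25.6% and 37.8%, and 2500 bp a share of protein-coding genes with a peak of 73.8%. Counted per protein-coding gene the density was 3.49. The ratio of peaks per Mb, segment over rest of chromosome 14, was 1.06. It became 0.998 against the chromosome from 50 Mb and 0.987 per protein-coding gene, so its direction turned in both. Both values lay within its counting interval of 0.969 to 1.16, which treats clustered peaks as independent. The ratio of median summit fragments was 1.33, and 1.53 at a TSS, a setting added after seeing the data, as were 20 to 40 Mb alone (33.8 peaks per Mb), peaks with a single whole solution and the density ratio per gene. No paired analysis was possible because 1 library was analysed, and for the same reason no replicate could be left out.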
